A study of Mus musculus with 8 samples.

Results

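The genes described here are named as proteins of the cytosolic ribosome or as paralogues of them, and were measured by bulk RNA-seq in mouse OT-I T cells. Their symbols begin with Rpl (large subunit) or Rps (small subunit) followed by a digit, or are Rplp0, Rplp1, Rplp2 or Rpsa. Pseudogene symbols with "-ps" and the S6 kinase genes were dropped, and at least 1000 counts were required in each of 4 columns. Of 56805 symbols in the table, 94 had such a name and 78 reached the minimum, 31 of the small and 47 of the large subunit by name. A place in the ribosome was not checked for each gene. The rule used no measured value other than this minimum, although it was set with earlier results of these data known.

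OT-I T cells are CD8+ T cells with a transgenic receptor for an ovalbumin peptide. The cells of both groups carried a Cas9 knock-in, were activated in vitro and were transduced with a lentiviral vector. The vector of the sgNT group held a non-targeting guide and that of the sgElovl1 group a guide against Elovl1, an elongase of very long-chain fatty acids. Transduced cells were sorted on the CD90.1 reporter after 3 days, so that each group was a sorted population with its mixture of edits and not a clone. The 8 labelled samples comprised 2 experiments, with 2 replicates per group in both. The deposited table held 4 columns, each the sum of 2 mice of a group in an experiment, so that the spread between mice was not measured and all p-values rest on the spread between these columns. Per the study's methods, the cells came from spleens and lymph nodes of young adult mice, and the animals, a cross of Rag2/OT-I with Rosa26-Cas9 mice, express Cas9 constitutively in both groups.

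A ribosome holds a single copy of most of its proteins, and growing cells make the proteins in matched amounts. The mRNAs are short and abundant, and many begin at a C followed by a run of pyrimidines, the terminal oligopyrimidine or TOP tract, through which mTORC1 and Larp1 set their translation. T cells build ribosomes in large numbers when they are activated. RNA-seq of whole mRNA measures the amount of these transcripts and not how well they are translated.

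The start sequences below show this feature and where it is absent among genes that the results turn on. Each is a 30-base window from RefSeq's promoter annotation on GRCm38.p6, on the strand of the gene, with the run that begins at the annotated start in capitals. Rps6 and Rplp2 are always described below, Rps27 has the paralogue Rps27l, and Rpl28 and Rpl38 were higher in experiment 2. Rps15a and Rpl15, whose windows are not shown, also had the run but were lower in experiment 2 (log2 fold change -0.31 and -0.22). The windows shown therefore do not stand for all genes with a run.
Rps6, chr4:86857353-86857382, minus strand: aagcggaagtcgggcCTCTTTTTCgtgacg
Rplp2, chr7:141447636-141447665, plus strand: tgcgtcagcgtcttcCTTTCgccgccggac
Rpl28, chr7:4792950-4792979, plus strand: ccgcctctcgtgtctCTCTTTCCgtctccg
Rpl38, chr11:114668565-114668594, plus strand: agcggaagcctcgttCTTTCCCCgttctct
Rps27, chr3:90213634-90213663, minus strand: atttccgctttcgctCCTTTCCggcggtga
The paralogues had no such run at their annotated starts, which lie at the same place in these windows, but in Rps27l and Rpl22l1 a run began within 5 bases of it. The partner Rpl22 had none at or within 5 bases of its listed starts, so that the run did not separate paralogues from partners.
Rps27l, chr9:66946071-66946100, plus strand: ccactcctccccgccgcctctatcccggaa
Rpl22l1, chr3:28805493-28805522, plus strand: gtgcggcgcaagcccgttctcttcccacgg
Rpl7l1, chr17:46782642-46782671, minus strand: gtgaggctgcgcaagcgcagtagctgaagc
The motif was a C followed by at least 4 letters that were C or T, read only on the strand of the gene. Promoters were listed for 58 of the 78 genes, and 12 of them (20.7%) had the motif at an annotated start. The motif was at a start in 3.01% of the 27025 genes of the promoter annotation. Those include the 58 genes and were not limited to genes measured in these cells. With starts moved by up to 5 bases, it was found in 28 of the 58 genes (48.3%) and in 21.2% of all listed genes. The match is a description of annotated starts, which may differ from the starts used in these cells.

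Column totals ran from 49068952 to 63623476 counts. Elovl1 was at 110 and 93.5 CPM in the sgNT columns of experiments 1 and 2, compared with 61.3 and 55.8 CPM in the sgElovl1 columns (CPM are counts scaled to the library size and the TMM factor of each column). Its fitted log2 fold change was -0.80 (SE 0.07, edgeR adjusted p = 3.8e-28), and the exact two-sided permutation test over the 4 columns gave p = 0.333, the smallest it can give. The marker values that follow were scaled to the column total only, without the TMM factor. The CD8 T cell markers Cd8a, Cd8b1, Cd3e, Cd3g and Cd2 summed to 2232 to 2751 CPM, whereas Cd4 was at 0 to 0.12 CPM. The 3 B cell markers summed to at most 0.89 CPM, the 4 myeloid markers to 9.27 to 14.3 CPM, the 3 erythroid markers to at most 0.42 CPM and the 2 natural killer cell markers to at most 1.79 CPM. Of the variance in all genes, 73.95% lay on a component that split the experiments.

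Ribosomal protein transcripts were among the most abundant of these cells. Their share of all counts was 12.9% in sgNT and 11.8% in sgElovl1 cells of experiment 1, and 13.4% and 12.9% in experiment 2 (95% Wilson intervals of 12.92 to 12.94, 11.78 to 11.80, 13.37 to 13.39 and 12.85 to 12.87%, which cover counting error only). Of the 100 genes with the most counts in a column, 50 to 55 were ribosomal protein genes. The share was therefore lower with sgElovl1 in both experiments, by 1.14 and 0.52 percentage points, but the exact permutation test gave p = 0.333, its smallest value. Counts of mitochondrial genes differed in the opposite direction and took 7.72, 9.71, 10.2 and 14.3% of the columns in the same order. Of the counts outside mitochondrial genes, ribosomal protein genes held 14.0, 13.1, 14.9 and 15.01%, so that the difference in experiment 2 changed sign.

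**Figure D1:**
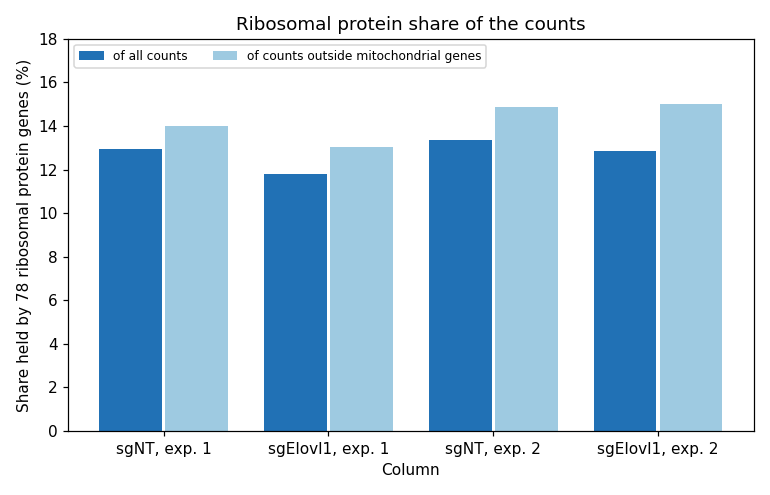
Share of the counts (%) held by the 78 ribosomal protein genes in each of the 4 columns, of all counts (dark bars) and of the counts outside mitochondrial genes (light bars). The dark bars are lower in sgElovl1 of each experiment (11.8 against 12.9% and 12.9 against 13.4%), and the light bars of experiment 2 are nearly level (14.9 and 15.01%).

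Rpsa, the laminin receptor homologue at the small subunit, had the highest CPM of the set. It was at 8804 CPM in sgNT and 7738 CPM in sgElovl1 of experiment 1, and at 9334 and 9482 CPM in experiment 2. Per kilobase of annotated transcript, Rpl41, Rpsa and Rpl26 led with means of 5682, 5528 and 4713 CPM per kilobase over the 4 columns. The order of Rpl41 (4800 to 6213) and Rpsa (4839 to 5930 CPM per kilobase) changed between columns, so that these genes were not separated. Rpl26 (4391 to 5476 CPM per kilobase) was below both of them in each of the 4 columns. The middle 50% of the set lay between 1345 and 2756 CPM per kilobase, with a median of 2074. The medians of the 30 small and 45 large subunit genes that are not like-named paralogues were 2245 and 2090 CPM per kilobase. The lowest levels were those of Rpl7l1 (56.7), Rpl13a (72.5) and Rpl22l1 (246 CPM per kilobase). Transcript lengths came from GENCODE M21 on GRCm38, whereas the authors used GRCm39. The authors counted whole genes, introns included, but these lengths are of spliced transcripts, so that any reads in introns add to a value. The only coding model of Rps20 in GENCODE M21 is 3706 bases long, which lowers its value of 425 CPM per kilobase.

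**Figure D2:**
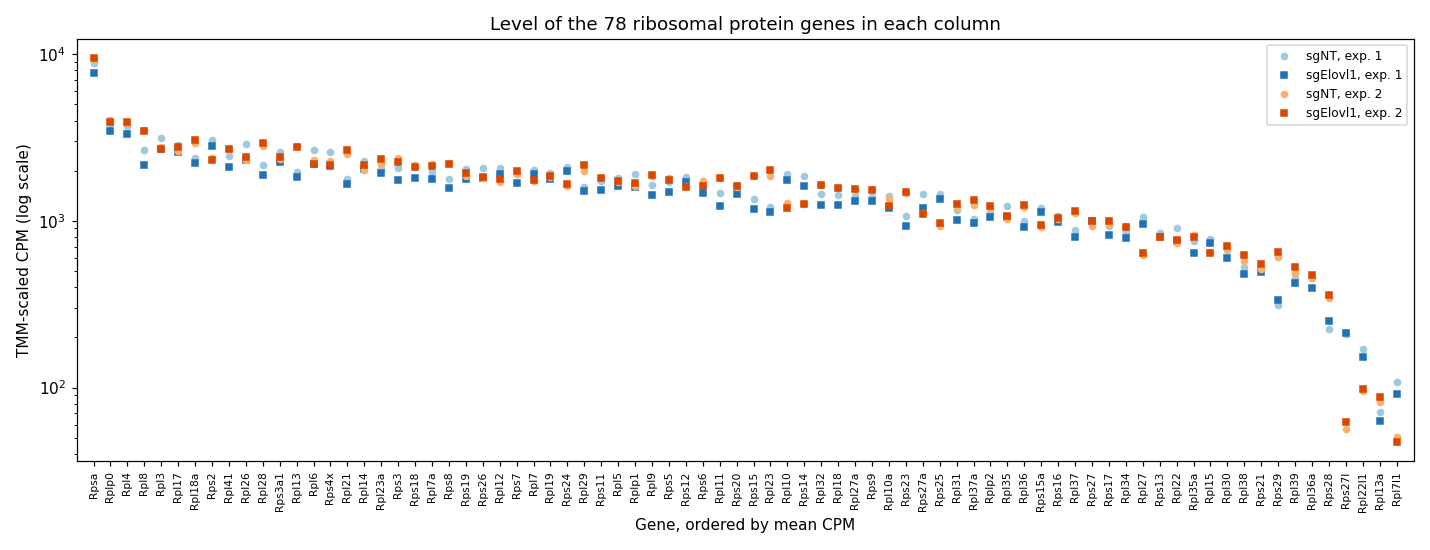
TMM-scaled CPM (log axis) of the 78 genes in each of the 4 columns, ordered by their mean, circles for sgNT and squares for sgElovl1. Most genes lie in a narrow band, Rpsa stands above the rest, and the paralogues and Rpl13a stand below.

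The low counts of several core ribosomal protein genes went together with overlapping gene models. Rpl13a, at 62.9 to 87.7 CPM, shares 65.2% of its exonic bases with other models on its strand in GENCODE M21. The core genes Rps10 (204 to 237 counts) and Rpl24 (54 to 112 counts) and the Rpl36a copy Rpl36al (90 to 171 counts) fell below the minimum, and 100, 89.96 and 82.3% of their exonic bases were shared. In contrast, Rpl13 shared 100% and was at 1827 to 2808 CPM. Whether reads on shared bases were left uncounted was not tested. Just inside the minimum were Rpl7l1 (2519 counts in its lowest column), Rps27l (2830) and Rpl13a (3309), and just outside were Rpl37rt (951), Rps19bp1 (780, a binding partner of Rps19 by name) and Rps3a2 (324). Reads can also be split with near-identical copies. The 307 ribosomal protein pseudogenes with "-ps" in their symbol held 17670 to 22045 counts per column, which is 0.215 to 0.318% of the counts of the set. Copies named otherwise, such as Rpl37rt, are not in this sum. It also does not measure how many reads the genes of the set lost to copies.

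The comparison of sgElovl1 with sgNT asks whether targeting Elovl1 changed these transcripts. None of the 78 genes was past the threshold of an adjusted p of 0.05 (edgeR quasi-likelihood test with experiment as a term, Benjamini-Hochberg over the 16006 genes tested), whereas 1.2% of all genes tested were, 0.762% higher and 0.437% lower. The smallest adjusted p of the set was 0.197, and DESeq2 called 0 of the 78 and 0.162% of all genes. At an unadjusted p under 0.05 there were 8 genes, all lower in sgElovl1, beside 10.6% of all genes in either direction and 5.55% lower. There were 2 such genes with DESeq2 size factors and 3 with the filter at 5 CPM. The median log2 fold change was -0.07, compared with -0.01 over all genes. The 95% intervals of the single genes ran from -0.34 at the lowest to 0.23 at the highest. They are for the change fitted over both experiments and rest on a spread shared between genes. They do not cover a difference between the experiments, so that larger changes within an experiment are not excluded. For Rpl26 the change within experiment 1 was -0.31, below its own interval of -0.28 to 0.03.

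The shift below 0 was seen in experiment 1 and not in experiment 2. In experiment 1, 75 of the 78 genes were lower in sgElovl1, beside 54.4% of all genes, with a median of -0.16 (-0.02 over all genes). In experiment 2 only 24 of the 78 were lower, beside 50% of all genes, with a median of 0.03 (0.00 over all genes). The fold change was higher in experiment 2 than in experiment 1 for 76 of the 78 genes and for 52.7% of all genes. The difference between the experiments could not be tested, since each held 1 column per group. Counting error alone gives a log2 fold change within an experiment an SE of 0.0029 to 0.04 in this set. The spread between mice, which would be needed to judge the shift, was not measured. Small and large subunit genes had medians of -0.18 and -0.15 in experiment 1 and 0.01 and 0.04 in experiment 2 without the paralogues. In bulk RNA, fewer cells that express a gene and less RNA per cell cannot be told apart.

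**Figure D3:**
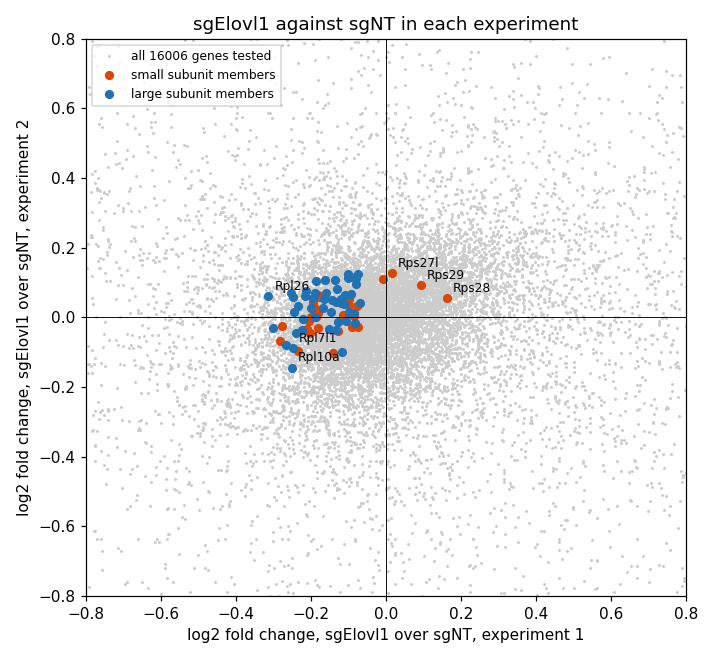
Log2 fold change of sgElovl1 over sgNT in experiment 1 (x axis) and experiment 2 (y axis) for all 16006 genes tested (grey, of which 2422 lie outside the axes) and the 78 ribosomal protein genes (orange for small, blue for large subunit). The ribosomal protein genes form a tight cloud to the left of 0 in experiment 1 and around 0 in experiment 2.

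The largest decreases in the same direction in both experiments were those of Rpl10a, Rpl6, Rps4x, Rpl7l1 and Rpl8. Rpl10a, a large subunit protein at the L1 stalk, was at 1419 and 1351 CPM in sgNT and at 1192 and 1223 CPM in sgElovl1 of experiments 1 and 2. Both sgElovl1 columns lay below both sgNT columns, and the log2 fold change was -0.20 (SE 0.07, edgeR adjusted p = 0.197). Both columns were also lower for Rpl6 (-0.17), Rps4x (-0.17), Rpl3 (-0.13) and Rps6 (-0.12), which made 5 of 78 such genes beside 6.85% of all genes tested. Rps4x, the X-linked small subunit protein, was at 2586 and 2282 CPM in sgNT and at 2128 and 2178 CPM in sgElovl1. Rpl8 was at 2666 and 3530 CPM in sgNT and at 2162 and 3455 CPM in sgElovl1, so that its groups overlapped across the experiments.

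Only 3 genes were higher with sgElovl1 in both experiments, and all 3 belong to the small subunit. Rps28 was at 225 and 344 CPM in sgNT and at 252 and 358 CPM in sgElovl1 (log2 fold change 0.11, SE 0.06, edgeR adjusted p = 0.568). Rps29, a small zinc-binding protein, was at 314 and 607 CPM in sgNT and at 334 and 648 CPM in sgElovl1 (0.09, SE 0.07, edgeR adjusted p = 0.675). Rps27l had 0.07 (SE 0.07, edgeR adjusted p = 0.796). No gene of the set had both sgElovl1 columns above both sgNT columns, beside 5.77% of all genes tested.

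Among the genes with a known role beyond the subunit body, none was past the threshold. The stalk proteins Rplp0, Rplp1 and Rplp2, which recruit the elongation factors, had log2 fold changes of -0.09, -0.10 and -0.01. Rps6, the substrate of the S6 kinases, was at 1626 and 1732 CPM in sgNT and at 1473 and 1614 CPM in sgElovl1, lower in both experiments (-0.14 and -0.10). Rpl5 and Rpl11, which bind the 5S rRNA and can inhibit Mdm2, had -0.07 (SE 0.07) and -0.12 (SE 0.07). For Rpl11 the difference was -0.25 in experiment 1 and 0.02 in experiment 2. Rpl37rt, a retrotransposed copy of Rpl37 by name that fell below the count minimum, was higher in sgElovl1 (16.04 and 23.96 CPM in sgNT, 18.1 and 34.4 CPM in sgElovl1, log2 fold change 0.35, SE 0.09, edgeR adjusted p = 0.0121), and its reads may be shared with Rpl37, which had -0.05.

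Other genes of translation gave 1 call. Fau (a small subunit protein fused to a ubiquitin-like one) and Rack1 (a scaffold on the small subunit) had log2 fold changes of -0.16 and -0.08, with edgeR adjusted p of 0.383 and 0.819. Of 36 translation initiation factors, 1 was lower and 0 were higher in sgElovl1. It was Eif5b, the GTPase that joins the subunits, at 442 and 94.4 CPM in sgNT and at 362 and 74.9 CPM in sgElovl1 (-0.31, SE 0.06, edgeR adjusted p = 0.000704). Of the 11 elongation and release factors 0 were past the threshold, and the smallest p were those of Eef1d (-0.22, edgeR adjusted p = 0.0555) and Abce1 (-0.16, edgeR adjusted p = 0.347).

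Likewise, 0 of 22 other TOP mRNAs, 0 of 20 regulators of TOP translation, 0 of 17 genes of ribosome quality control, 0 of 13 ribosomal protein chaperones and 0 of 11 genes of ribosomal stress and p53 were past the threshold. Their median log2 fold changes were -0.07, -0.01, 0.00, -0.04 and -0.02, and some genes belong to several lists. Larp4, which binds poly(A) tails, had -0.19 and Rps6kb2, an S6 kinase, had 0.15. Ascc3, a helicase that splits collided ribosomes, had -0.24 and Gtpbp2, a ribosome rescue GTPase, had 0.16. Heatr3, which imports Rpl5, had -0.19 and Grwd1, a chaperone of Rpl3, had -0.16. Mdm4 and Pmaip1 had 0.11 and -0.13. These 8 genes had edgeR adjusted p of 0.249 to 0.68. In contrast, 11 of the 13 mitochondrially encoded proteins were past the threshold and higher in sgElovl1. The medians of the 13 were 0.34 and 0.55 in experiments 1 and 2. The others, mt-Nd3 (0.57, edgeR adjusted p = 0.163) and mt-Nd4l (0.77, edgeR adjusted p = 0.0837), were also higher but not past the threshold.

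The comparison of experiment 2 with experiment 1 shows how these genes varied across the columns, and it called 47 of them where the guides called 0. In experiment 2, 33 of the 78 genes were higher and 14 were lower than in experiment 1 (edgeR, adjusted p under 0.05), which is 60.3% of the set beside 55.6% of all genes tested. Without 1 column the 47 calls became 28 to 54, with 28 without sgElovl1 of experiment 2 and 29 without sgNT of experiment 2, and 25 of the 47 genes were called in every fit. With the DESeq2 Wald and likelihood-ratio tests 51 of the 78 (65.4%) were called, beside 43.4 and 43% of all genes. By direction in edgeR, 42.3% of the set and 26.4% of all genes were higher, and 17.9% of the set and 29.2% of all genes were lower. The median log2 fold change of the set was 0.13, compared with 0.00 over all genes, and its size was small, with a median absolute change of 0.19 beside 0.47. The sources used here do not say what differed between the experiments.

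The changes between experiments were large for single members and in both directions. Rps29 rose most, from 314 and 334 CPM in sgNT and sgElovl1 of experiment 1 to 607 and 648 CPM in experiment 2 (log2 fold change 0.95, SE 0.07, edgeR adjusted p = 3.4e-45). Rpl23, a protein of the subunit interface where Eif6 binds, rose from 1206 and 1124 to 1854 and 2020 CPM (0.73, SE 0.07, edgeR adjusted p = 7.4e-22). Rpl21 rose from 1781 and 1669 to 2527 and 2649 CPM (0.59, SE 0.08, edgeR adjusted p = 1.7e-13). The groups did not overlap between experiments for any of these 3. Over the set, 41 genes had both columns of experiment 2 above both of experiment 1, and 15 had both below, beside 37.4 and 38.4% of all genes.

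The 3 like-named paralogues were the 3 genes that fell most. Rps27l, a paralogue of Rps27 known as a p53 target, was at 209 and 211 CPM in sgNT and sgElovl1 of experiment 1 and at 56.7 and 61.8 CPM in experiment 2. Its log2 fold change was -1.83 (SE 0.07, edgeR adjusted p = 3.7e-159), which is 0.28 times the level of experiment 1. Its partner Rps27 was at 1002 and 996 CPM and then at 929 and 1003 CPM (-0.05, SE 0.07, edgeR adjusted p = 0.579). The coding sequences of the pair share 76.2% of their aligned bases.

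Rpl7l1 went from 108 and 91.0 CPM to 50.4 and 47.4 CPM (-1.02, SE 0.07, edgeR adjusted p = 4.1e-48). Its partner Rpl7 went from 2030 and 1915 to 1744 and 1758 CPM (-0.17, SE 0.08, edgeR adjusted p = 0.0431), a call that was lost under 6 of the 10 settings that keep all columns. Rpl22l1 went from 171 and 152 CPM to 95.8 and 97.5 CPM (-0.74, SE 0.06, edgeR adjusted p = 4.5e-29). Its partner Rpl22 went from 903 and 758 to 733 and 769 CPM (-0.14, SE 0.07, edgeR adjusted p = 0.0743). Coding sequence identity was 54.0% for Rpl7l1 and Rpl7 and 68.2% for Rpl22l1 and Rpl22. In each pair the partner was the more abundant gene in every column. The pairs were compared without a test of the difference between partners.

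**Figure D4:**
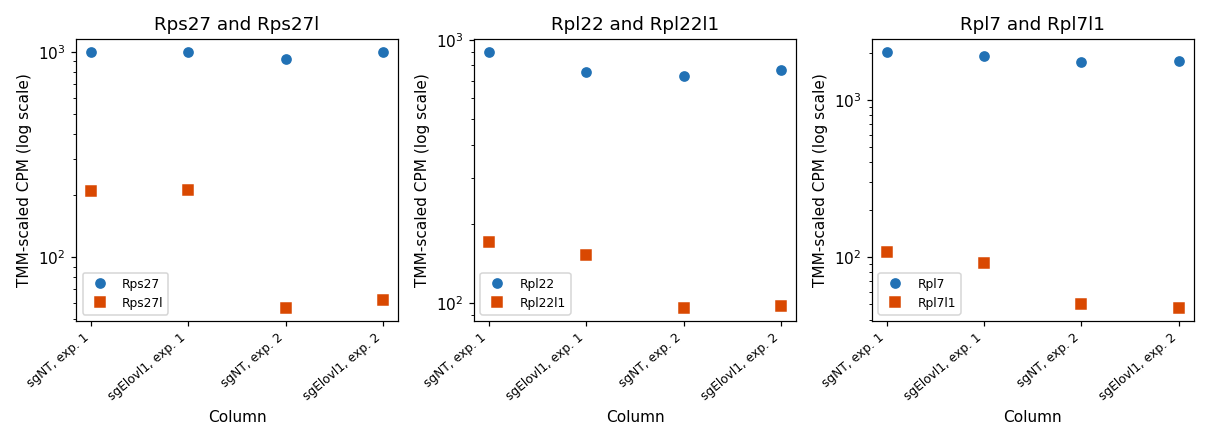
TMM-scaled CPM (log axis) in the 4 columns for Rps27 and Rps27l, Rpl22 and Rpl22l1, and Rpl7 and Rpl7l1. The paralogues (squares) are lower in both columns of experiment 2, with Rps27l at 56.7 and 61.8 against 209 and 211 CPM, while the partners (circles) lie much closer together.

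Without the paralogues the range narrowed to -0.67 to 0.95. After them the lowest were Rpl27 (-0.67), Rps25 (-0.57) and Rpl10 (-0.57), named after their values were seen. Of 45 large subunit genes outside the paralogues 25 were called higher and 5 called lower, with a median of 0.19. Of 30 small subunit genes 8 were called higher and 6 called lower, with a median of 0.06. No test of the difference between subunits was run. An absolute change of at least 0.5 was found in 15 of the 78 genes and in 47.1% of all genes tested, which were not matched for level.

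**Figure D5:**
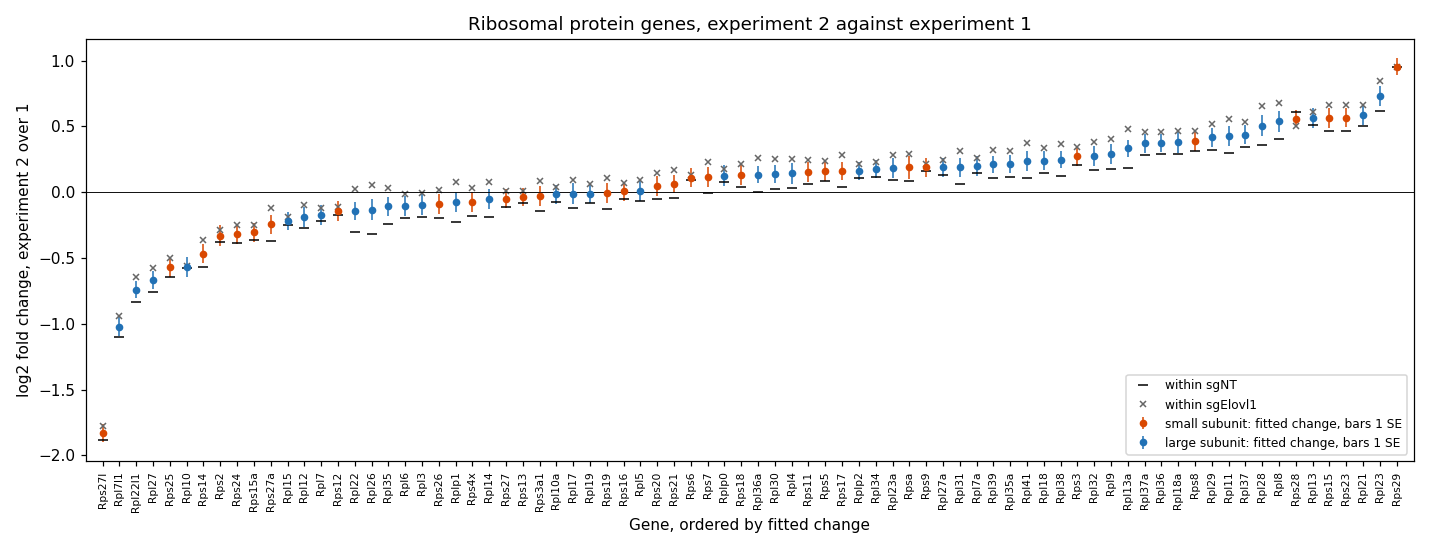
Log2 fold change of experiment 2 over experiment 1 for each of the 78 genes, ordered by the fitted change (circles with bars of 1 SE, orange for small and blue for large subunit), with the change within sgNT (dashes) and within sgElovl1 (crosses). Rps27l (-1.83), Rpl7l1 (-1.02) and Rpl22l1 (-0.74) lie lowest and Rps29 (0.95) highest, and the crosses lie above the dashes for 76 of the 78 genes.

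The order of the genes between experiments was nearly the same in both groups. Across the 78 genes the change within sgNT and the change within sgElovl1 had a Pearson correlation of 0.981 and a Spearman correlation of 0.962. The genes share libraries and depth in each column, so this is a description. The correlation between the guide differences of the 2 experiments was lower (0.407 and 0.376). GC content of the transcript had a correlation with the experiment change of 0.349 (Pearson) and 0.311 (Spearman), and transcript length of 0.00 and -0.05. Genes with the pyrimidine run at their start had a median experiment change of 0.09 (12 genes) and those listed without it 0.12 (46 genes).

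Most other lists of translation genes had more genes called lower than higher in experiment 2, and the counts given here are of genes past the threshold. Of 36 initiation factors 27 were lower and 2 higher in experiment 2, with a median of -0.61, and Eif5b had -2.25. Of 11 elongation and release factors 9 were lower and 0 higher (-0.36). Of 13 chaperones of ribosomal proteins 11 were lower and 0 higher (-0.62), with Grwd1 at -1.39 and Heatr3 at -1.29. Of 22 other TOP mRNAs 13 were lower and 3 higher (-0.22), and those 3 included Fau (0.43). The regulators of TOP translation had 9 lower and 5 higher of 20, ribosome quality control genes 7 lower and 6 higher of 17, and the ribosomal stress and p53 list 7 lower and 2 higher of 11. The background of 29.2% lower and 26.4% higher applies to each list. The lists share genes, so that their counts are not separate results. Other TOP mRNAs include elongation factors such as Eef1a1, initiation factors such as Eif4b and chaperones such as Naca. All 13 mitochondrially encoded proteins were higher in experiment 2, and 4 of 5 CD8 T cell markers were higher. Their part in the changes of the ribosomal protein genes was not tested.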

How the data were processed

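Bulk mRNA libraries of sgNT and sgElovl1 OT-I T cells were analysed. The authors aligned reads with STAR 2.7.10b to GRCm39 and counted whole genes, introns included, with featureCounts 2.0.1 in R 4.3.3 in the reverse-stranded mode. Their annotation release is not stated. The deposited values are raw counts per gene symbol, the replicate mice of an experiment being summed by the authors. Counts were tested here with edgeR 4.0.16 (filterByExpr, TMM, quasi-likelihood test, terms for experiment and guide), adjusted by Benjamini-Hochberg over 16006 genes at 0.05. Dispersion rested on the shared trend, since the prior degrees of freedom were infinite. DESeq2 1.42.0 and limma 3.58.1 were alternatives. The 95% intervals of fold changes are the estimate with 1.96 SE on each side. Totals of 49068952 to 63623476 counts limit precision little, and intervals of shares cover counting error only.

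The members and gene lists were chosen with earlier results of these data known. Named genes were the stalk proteins, Rpsa, Rps6, Rpl5, Rpl11, paralogue pairs, the largest changes and levels, genes at the count minimum, Fau, Rack1, Elovl1 and, from each list, called genes or the 2 of smallest p. Lengths and overlaps came from GENCODE M21 (GRCm38) and start sequences from RefSeq (GRCm38.p6). Coding sequences of paralogues were aligned in place of proteins, which were not used here. The authors' series text on tumour samples does not describe these in vitro samples. One gene of the rule is not reported here.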

Additional observations from a re-analysis of the deposited data

Results flagged for a closer look

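The median log2 fold change of sgElovl1 over sgNT for the 78 ribosomal protein genes had opposite signs in the experiments. It was -0.16 in experiment 1 and 0.03, which is near 0, in experiment 2. None of the 78 genes was called between the guides. Whether the experiments differed was not tested, since each experiment held 1 column per group. Among the genes named above the same was seen, with values in experiments 1 and 2, for Rplp1 (-0.25 and 0.06), Rplp2 (-0.07 and 0.04), Rpsa (-0.19 and 0.02), Rpl5 (-0.15 and 0.01), Rpl11 (-0.25 and 0.02) and Rpl22l1 (-0.17 and 0.03). It was also seen for Rpl22 (-0.25 and 0.07), Rps27 (-0.0088 and 0.11), Rpl7 (-0.0844 and 0.01), Rpl23 (-0.10 and 0.12), Rpl21 (-0.0933 and 0.07), Rpl41 (-0.23 and 0.03), Rpl26 (-0.31 and 0.06) and Rpl13a (-0.19 and 0.10). None of these single differences was tested. Groups of 2 columns are too small to look for outlying samples.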

How the results depend on the processing

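No ribosomal protein gene of the 78 was called between the guides under any of the 14 alternative fits. With members of at least 100 counts, 1 of 85 was called, Rpl37rt. The median log2 fold change of sgElovl1 over sgNT stayed between -0.07 and -0.05 under other scalings, filters and tests, and ran from -0.15 to 0.03 with each column left out. The count called between experiments ran from 28 to 54 with a column left out. It was 28 without sgElovl1 of experiment 2 and 29 without sgNT of experiment 2. Over the other fits it ran from 36 to 56, and 25 of the 47 genes were called in every fit. The 47 kept their direction in every fit. Elovl1 was at -0.80 without the experiment term and no longer past the threshold, as with each column left out (-0.89 to -0.68). The guide minus control share was -0.955 percentage points in experiment 1 and 0.118 in experiment 2 without mitochondrial counts. The start run was in 48.28% of genes within 5 bases. Over all genes, 192 were called between guides, 63.5% of them higher, compared with 75% by DESeq2 size factors, 76.2% by upper-quartile factors and 79.7% with mitochondrial and top genes left out of scaling. DESeq2 called 26, the filter at 5 CPM 35, no filter 94 and the fit without an experiment term 0. No cause was tested.

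Uncalled guide differences near 0 changed sign. Rplp2 was at 0.0003 with DESeq2 size factors, 0.0003 with both DESeq2 tests, 0.0043 with upper-quartile factors, 0.0087 with mitochondrial and top genes left out and 0.0024 with the filter at 5 CPM. Rpl21 was at 0.0013, 0.0013, 0.0053, 0.0097 and 0.0034 in the same order and at 0.0032 without the experiment term. With a column left out the experiment term is lost, so that guide differences mix with those between experiments. The ranges were then wide for Rplp0 (-0.1545 to 0.0031), Rplp1 (-0.1847 to 0.0163), Rplp2 (-0.1056 to 0.0961), Rpsa (-0.2109 to 0.0664), Rpl11 (-0.3841 to 0.1582), Rpl22l1 (-0.4506 to 0.3791), Rpl22 (-0.2157 to 0.0564), Rps27l (-1.101 to 1.2644), Rpl7l1 (-0.7389 to 0.452). They were also wide for Rpl7 (-0.1192 to 0.0709), Rps28 (-0.1768 to 0.4629), Rps29 (-0.4441 to 0.6734), Rpl8 (-0.5008 to 0.1595), Rpl23 (-0.4281 to 0.4081), Rpl21 (-0.3503 to 0.3038), Rpl41 (-0.2695 to 0.0869), Rpl26 (-0.2605 to 0.0293) and Rpl13a (-0.2669 to 0.1962).

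No paired analysis was possible because the columns sum the replicate mice of each experiment, other than the pairing of sgNT with sgElovl1 within an experiment that the experiment term makes.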
